A study of Nothobranchius furzeri with 24 samples.

Results

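The brains of 4 wild male turquoise killifish (Nothobranchius furzeri, strain MZM_A41) of 108 days post hatch (dph) were compared with those of 4 males of 39 dph. The fish were chosen by the sex and age given in their labels, and these 8 libraries belong to a series of 24, with 4 females and 4 males at each of 39, 73 and 108 dph. The males of 73 dph entered the fit so that all 12 males shared 1 estimate of the spread between fish. All fish were untreated animals caught by net in natural ponds, with 1 whole brain and 1 fish per library. The ages are the study's estimates. The younger males were adults as well, so both groups belong to adult life, and the fish of the older group were caught later in the season. Age and time of collection therefore cannot be told apart.

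The turquoise killifish is an annual fish of African ponds that dry out each year, and it completes its life within a single rainy season. Its brain, like that of other teleosts, keeps dividing progenitor cells in adult life, and these give rise to new neurons that pass through a stage marked by transcription factors of the SOX family and by doublecortin. In ageing vertebrate brains the genes most often followed are those of cell division and neurogenesis, protein folding and degradation, chromatin, and the synapse.

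Reads assigned to genes numbered between 14219725 and 19346170 in the 108 dph males and between 10019750 and 18663637 in the 39 dph males. The lowest total was that of 39 dph male replicate 4. RNA integrity, by the study's sample sheet, was lower in all of the older than in all of the younger males, so age and RNA integrity cannot be told apart in any value below. With the tested genes ordered by length into 10 bins of equal size, the median log2 fold change of the bins lay between -0.02 and 0.03. The share of genes called higher at 108 dph was 6.28% in the bin of the shortest and 13.1% in that of the longest genes. The share called lower was 7.67% and 9.64% in these bins. Neuronal markers were abundant in every library, with a summed level of 3544 to 4269 reads per 1000000 (RPM) at 108 dph and 3950 to 4118 RPM at 39 dph over 10 genes, 3 of which were lower at 108 dph (2 genes named STMN2, and ELAVL3). Oligodendrocyte markers summed to 4542 to 9545 RPM at 108 dph and 4912 to 7910 RPM at 39 dph, and astroglial markers to 4868 to 9026 RPM at 108 dph and 5669 to 7874 RPM at 39 dph. Single glial markers did pass. Of 9 oligodendrocyte loci CNP was lower at 108 dph (log2 fold change -1.08, edgeR FDR 0.00023), and of 9 astroglial loci the glutamate transporter SLC1A2 was higher (0.44, edgeR FDR 0.021) and 1 of 4 ALDH1L1 loci lower (-0.70, edgeR FDR 0.034). GFAP had the largest log2 fold change of the astroglial loci, 1.04, but did not pass (edgeR FDR 0.053), and its ages overlapped. A pituitary gene was abundant in some libraries of both ages. The growth hormone gene GH1 stood at 4417, 2887, 5.05 and 2.56 counts per 1000000 scaled reads (CPM) in the 4 males of 108 dph, and at 3128, 1665, 1.88 and 3.72 CPM in the 4 males of 39 dph. At each age 2 of the 4 fish were thus high.

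**Figure D1:**
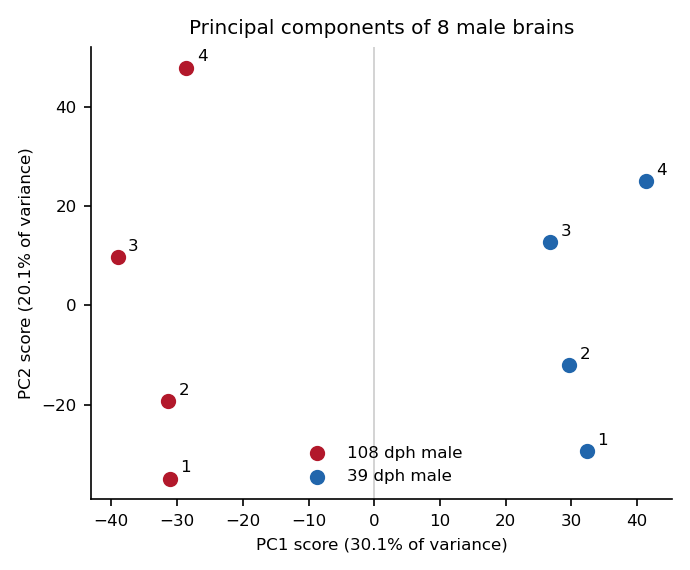
First against second principal component of log2 CPM in the 8 male brains. Each point is 1 fish, numbered by replicate, with 108 dph males in red and 39 dph males in blue. The ages lie on opposite sides of 0 on the first component, between -39.1 and -28.6 at 108 dph and between 26.8 and 41.3 at 39 dph.

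The ages separated on the first principal component of expression, which held 30.1% of the variance. Its scores were -31.1, -31.4, -39.1 and -28.6 in the 108 dph males, and 32.3, 29.7, 26.8 and 41.3 in the 39 dph males. On the second component, with 20.1% of the variance, the ages overlapped. In both groups the fish high in GH1, replicates 1 and 2, had the lower scores on it. In replicate order the scores were -34.9, -19.2, 9.77 and 47.9 in the 108 dph males, and -29.3, -12.1, 12.7 and 25.01 in the 39 dph males. The scores thus also rose with replicate number within each age, so GH1 level and replicate order cannot be told apart here.

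To ask which genes differ between old and young adult males, expression was tested gene by gene with edgeR at a false discovery rate (FDR) of 0.05. Of 18771 genes tested, 3593 passed (19.1%). At 108 dph 1858 genes were higher (9.90%) and 1735 were lower (9.24%). Most differences were modest, with a median size of 0.54 on the log2 scale among called genes, or 1.46-fold, and quartiles of 0.40 and 0.79. More than 2-fold differences numbered 535, of which 283 were higher and 252 lower at 108 dph. The median over all tested genes was -0.0004. In 4360 genes (23.2%) the 4 fish of one age all lay beyond the 4 of the other, and 3130 of the called genes were among them.

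The result was repeated without the shallow library of 39 dph male replicate 4. Then 2743 genes were called, 1488 higher and 1255 lower at 108 dph, and 2574 of them had been called with all fish, each in the same direction. None of the 3593 genes changed its sign. The genes that lost their call numbered 483 among those higher and 536 among those lower at 108 dph. Other single fish mattered as much: without 39 dph male replicate 2, and likewise without replicate 3, the count was 2478.

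The genes come as locus identifiers of the annotation. Human orthologue names, from the study's supplementary gene tables, were at hand for 7321 of the tested genes (39.0%), and the roles given below are those known for the human or other vertebrate orthologues. Most of the tables that pair identifiers with names hold genes selected for their change with age in wild or captive fish, and of the named genes 2379 passed (32.5%), with 1248 higher (17.0%) and 1131 lower (15.4%) at 108 dph. The table of differences between wild and captive fish was not selected on age. Of 4121 genes named in it, some of them in the other tables too, 939 passed (22.8%). The share differed widely by table: 2089 of 4529 genes named in a table selected on age passed (46.1%, with 23.9% higher and 22.2% lower at 108 dph), against 289 of 2780 genes named only in the table of wild and captive fish (10.4%). Of the 11450 genes without a name 1214 passed (10.6%). By the study's text, the tables selected on age include genes called between ages within each sex of these same wild fish. The share of 46.1% is thus not independent of the test made here, and genes so named are left out of the 10.4%. The gene lists below mix both sources, with between 10 of 50 respiratory chain genes and 46 of 47 mitosis genes named in a table selected on age. Their counts are to be read beside the shares above, and the part that this selection has in them was not tested.

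**Figure D2:**
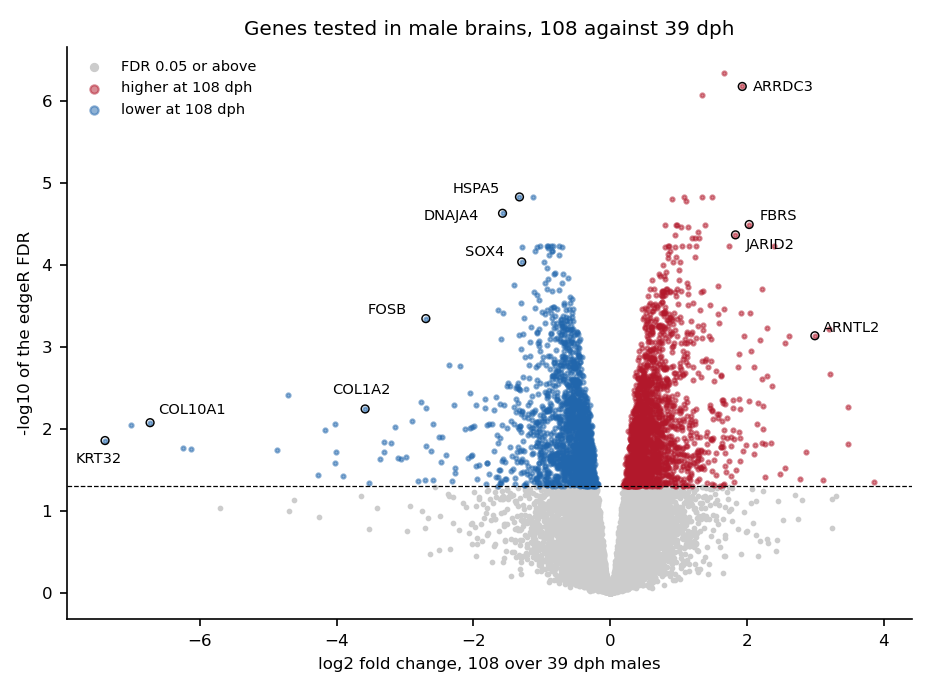
Log2 fold change of 108 over 39 dph males (horizontal) against -log10 of the edgeR FDR (vertical) for the 18771 tested genes. Red points are the 1858 genes higher and blue points the 1735 genes lower at 108 dph, and the dashed line is the FDR of 0.05. The falls reach farther than the rises, down to -7.39 in a gene named KRT32.

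The 10 largest rises among named genes with no overlap between the ages lay between 1.83 and 2.99 on the log2 scale, and they spanned clock, chromatin, signalling and kinetochore genes. The largest was ARNTL2, which codes for a clock activator (BMAL2) that pairs with CLOCK. It stood at 90.6, 62.3, 57.1 and 58.6 CPM in the 108 dph males, and at 16.6, 7.12, 4.84 and 4.53 CPM in the 39 dph males. All old males were thus more than 3 times as high as the highest young male, and the log2 fold change was 2.99 (SE 0.43, edgeR FDR 0.00073). The abundant transcript of ARRDC3, an alpha-arrestin that takes part in receptor endocytosis, was present at 839, 1082, 941 and 904 CPM at 108 dph, against 215, 244, 273 and 255 CPM at 39 dph. Its spread within each age was small, and the log2 fold change was 1.93 (SE 0.10, edgeR FDR 6.7e-07).

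A pair of large rises belonged to the Polycomb system, which represses genes through histone marks. FBRS (fibrosin, of the AUTS2 family) was at 644, 468, 412 and 739 CPM in the 108 dph males and at 144, 134, 128 and 147 CPM in the 39 dph males. JARID2, a subunit that guides Polycomb repressive complex 2, stood at 679, 621, 581 and 762 CPM at 108 dph and at 167, 155, 171 and 251 CPM at 39 dph. The log2 fold changes were 2.03 for FBRS (SE 0.17, edgeR FDR 3.2e-05) and 1.83 for JARID2 (SE 0.16, edgeR FDR 4.3e-05). Their means in the males of 73 dph, 659 CPM for FBRS and 1001 CPM for JARID2, were above those of both other ages.

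The other large rises were in genes of low level. GPNMB, a glycoprotein of lysosomes and phagocytes, averaged 7.40 ± 2.1 CPM at 108 dph and 1.64 ± 1.32 CPM at 39 dph (SD, n = 4 each). FASLG, the ligand of the FAS death receptor, averaged 3.59 ± 0.83 CPM at 108 dph and 0.86 ± 0.44 CPM at 39 dph. CACNG7, an auxiliary subunit of calcium channels and AMPA receptors, averaged 6.16 ± 2.11 CPM at 108 dph and 1.48 ± 0.32 CPM at 39 dph. Their log2 fold changes were 2.14, 2.1 and 2.04, with edgeR FDRs of 0.0088, 0.0018 and 0.00039. Rises also passed in ETHE1, a mitochondrial enzyme that oxidises sulfide (log2 fold change 2.22), in ZBTB47, a zinc finger gene (2.04), and in CENPO, a kinetochore subunit (1.92). All 10 were also called higher at 108 dph in females, which share no fish with the males. Of the 10 largest falls chosen by the same rule, 9 were tested in females and 6 were called lower there. Of all 3585 genes called in males and tested in females, 2336 were called in the same direction. Names come in part from tables that include genes called between ages in these same females. The female counts of named genes are thus not independent of that selection.

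**Figure D3:**
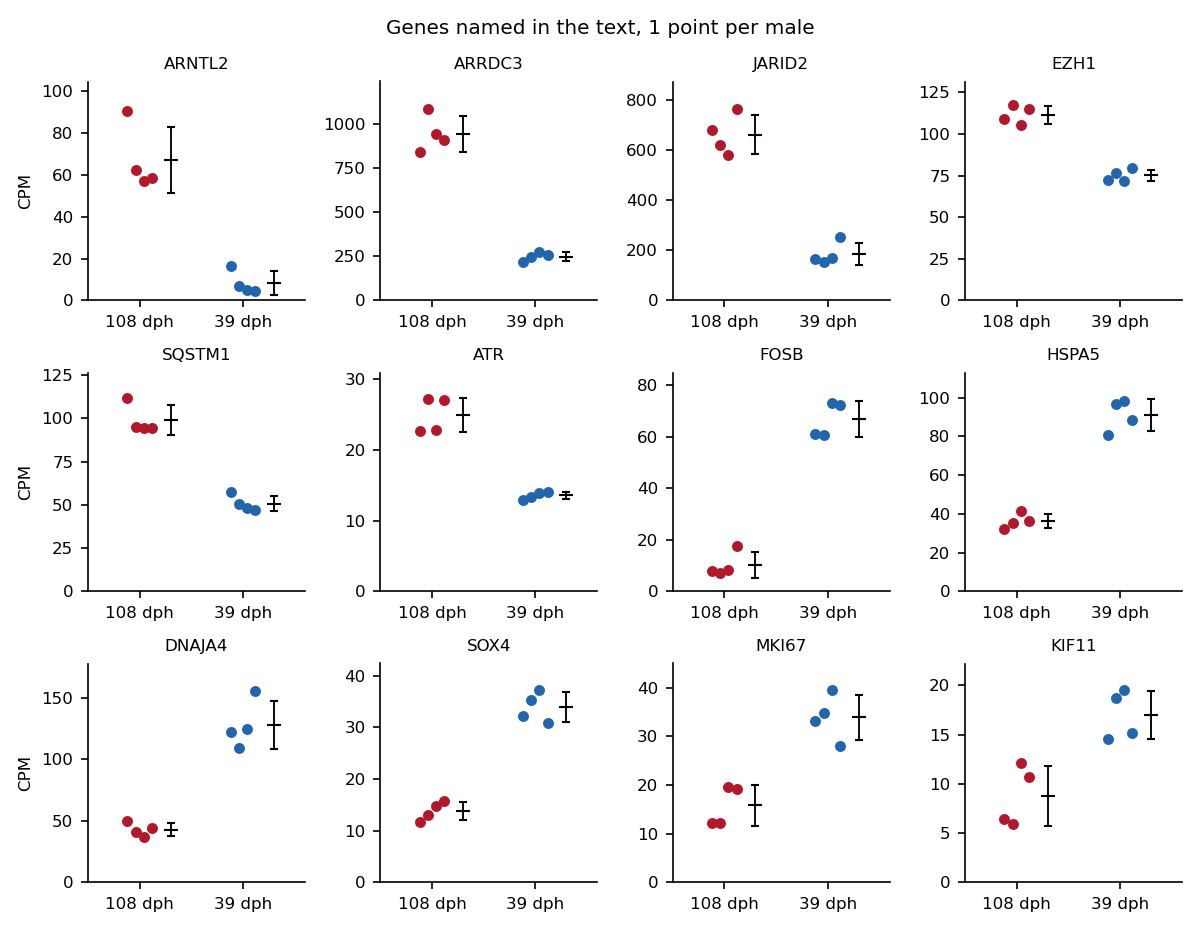
CPM (vertical, linear axes from 0) of 12 named genes in the 4 males of 108 dph (red, left) and the 4 males of 39 dph (blue, right). Each point is 1 fish, in replicate order, and the black marks are mean and SD. The ages do not overlap in any of the 12 genes, which are higher at 108 dph from ARNTL2 to ATR and lower from FOSB to KIF11. For ARNTL2, ARRDC3, JARID2 and FOSB the rule that chose them requires this.

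The largest falls were in genes of bone, skin and connective tissue, and they rested on 2 young fish. COL10A1, a collagen of calcifying cartilage and fish bone, was named for 2 loci. Nfu_g_1_022498 stood at 0.792, 0.826, 0.618 and 0.285 CPM in the 108 dph males, and at 63.5, 0.96, 1.25 and 205 CPM in the 39 dph males. The other locus, Nfu_g_1_015191, was at 0.43, 1.05, 0.36 and 1.08 CPM at 108 dph and at 40.5, 2.14, 2.96 and 32.8 CPM at 39 dph. In both loci 39 dph male replicates 1 and 4 stood far above all other males. COL1A2, a chain of type I collagen, gave the same picture: at Nfu_g_1_013298 the 108 dph males had 7.78, 17.2, 12.6 and 12.8 CPM, and the 39 dph males had 183, 30.7, 22.5 and 373 CPM.

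Keratin genes named KRT32 had the same 2 fish on top. At Nfu_g_1_006862 the values were 0.29, 0.17, 0.31 and 0.63 CPM in the 108 dph males, against 206, 0.48, 0.17 and 30.5 CPM in the 39 dph males. This gene had the lowest log2 fold change of all called genes, -7.39 (SE 1.8, edgeR FDR 0.014), yet 39 dph male replicates 2 and 3 lay among the old fish. The keratin, AGR2 (a secretory protein of mucous cells) and the unnamed Nfu_g_1_014183 were picked after their values were seen. In all, 16 genes were above 2 CPM in both of these fish and more than 4 times higher in them than in every other male, and 15 of the 16 were called lower at 108 dph. Such a choice fixes the direction. In females none of the 5 keratin and AGR2 loci was called lower, with edgeR FDRs of 0.23 and above. The 16 genes took 0.220% and 0.233% of the reads of 39 dph male replicates 1 and 4, against 0.0124% and less in the other 10 males, and they made up 13 of the 20 largest falls.

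When 39 dph male replicates 1 and 4 were both left out, a fit chosen after seeing the data, 2 of the 16 genes were still lower at 108 dph. These were COL10A1 at Nfu_g_1_015191 (log2 fold change -1.78, edgeR FDR 0.041) and COL1A2 at Nfu_g_1_013298 (-1.07, edgeR FDR 0.031). COL10A1 at Nfu_g_1_022498 then gave -0.81 (edgeR FDR 0.30), and KRT32 at Nfu_g_1_006862 gave 0.09 (edgeR FDR 0.97). This fit called 1493 genes in all, 785 higher and 708 lower at 108 dph, and 1422 of them had been called with all fish, each in the same direction. With 2 fish left in the young group, the test has fewer fish to work with.

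**Figure D4:**
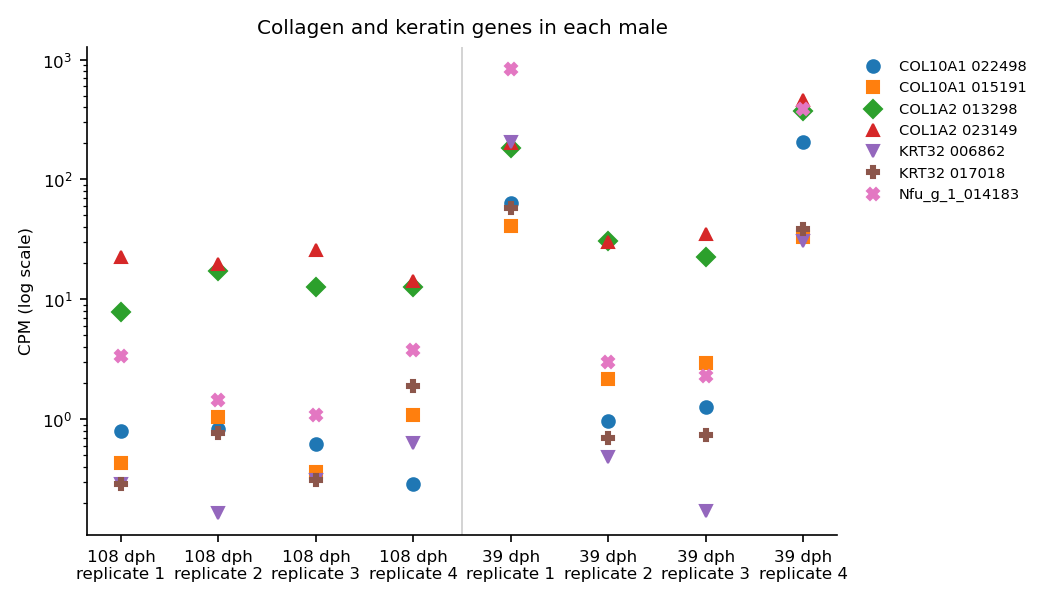
CPM (vertical, log scale) of 7 collagen, keratin and unnamed genes in each of the 8 males (horizontal), with 108 dph on the left and 39 dph on the right. Each symbol is 1 gene. In 39 dph male replicates 1 and 4 all 7 genes stand above 30 CPM, and in the other 6 males none exceeds 34.8 CPM.

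Over the whole list of collagens, laminins and basement membrane genes, 13 of 33 tested genes fell at 108 dph and 0 rose, with a median log2 fold change of -0.42. The share lower was 39.4%, beside 15.4% of all named genes, and 11 of the 13 are named in a table selected on age. The called members include the network collagens COL4A1, COL4A2 and COL4A3 and the proteoglycan HSPG2 as well as the fibrillar COL5A2 and COL5A3. COL5A3 at Nfu_g_1_013377 averaged 5.07 ± 1.74 CPM at 108 dph and 11.7 ± 2.07 CPM at 39 dph (SD, n = 4 each), and its log2 fold change was -1.20 (SE 0.25, edgeR FDR 0.0066). Without 39 dph male replicates 1 and 4, 3 of the 33 genes were called, all lower, and the median was -0.37. In females 11 of the 33 were lower and 2 higher, beside 2174 lower and 2312 higher of all 18824 genes tested there. A share over named genes was not taken in females, here and for all lists below. Of the loci given above COL1A2 at Nfu_g_1_013298 and COL10A1 at Nfu_g_1_022498 were called lower in females. COL10A1 at Nfu_g_1_015191 was not (log2 fold change -2.02, edgeR FDR 0.23). Of 5 symbols listed as vessel markers only 2 were named, PECAM1 and FLT1. Of their 3 loci 1, of PECAM1, was called lower (log2 fold change -0.76, edgeR FDR 0.0029). The other PECAM1 locus gave -0.25 (edgeR FDR 0.23) and FLT1 gave -0.12 (edgeR FDR 0.56). The summed level of the 3 loci was 50.4 to 62.6 RPM at 108 dph and 70.1 to 79.7 RPM at 39 dph. The part of vessel or attached tissue in these falls was not tested. In whole brains, fewer cells of a type and less RNA per cell cannot be told apart, here and for all results that follow.

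Of the other large falls, several separated all 4 fish of each age widely. FOSB, a subunit of the AP-1 transcription factor, stood at 8.07, 7.21, 8.24 and 17.7 CPM in the 108 dph males, and at 60.9, 60.7, 73.3 and 72.5 CPM in the 39 dph males. NR4A1, a nuclear receptor induced within an hour of neuronal activity, was at 0.94, 1.43, 0.98 and 1.03 CPM at 108 dph and at 5.95, 6.42, 6.2 and 3.82 CPM at 39 dph. The rule that chose both genes requires that the ages do not overlap. Their log2 fold changes were -2.70 (SE 0.36, edgeR FDR 0.00045) and -2.35 (SE 0.39, edgeR FDR 0.0017). TMEM119 (Nfu_g_1_009102), a membrane protein known as a microglial marker in mammals and also made by bone cells, averaged 1.53 ± 0.995 CPM at 108 dph and 6.93 ± 0.96 CPM at 39 dph (SD, n = 4 each). Its log2 fold change was -2.20 (SE 0.36, edgeR FDR 0.0017), and a second locus of this name gave -1.01 (edgeR FDR 0.094). The microglial list could not be used to place it, since of its 10 symbols only CD74 was named, at 7.73 to 24.97 RPM in the old and 8.08 to 22.3 RPM in the young males. The fall of PRSS48 (Nfu_g_1_018518), a serine protease, passed with a log2 fold change of -2.05. FBXO40, a ubiquitin ligase of muscle, fell by 3.53 (edgeR FDR 0.045), but its young males were uneven, with replicates 1 and 3 high and replicate 2, at 0.696 CPM, close to the highest old male, at 0.661 CPM. FAM83G fell by 2.12, but it too was highest in 39 dph male replicates 1 and 4, and without them its log2 fold change was -0.69 (edgeR FDR 0.18).

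Because FOSB and NR4A1 are immediate early genes, transcribed at once after stimulation of a cell, the related genes were then listed. Of 16 tested loci named for the FOS, JUN, EGR and NR4A families and for NPAS4, all had a negative log2 fold change, 8 passed the test and the median was -1.05. Of all named genes 15.4% were called lower, and of genes named in a table selected on age 22.2%. How many of the 16 loci are so named was not counted. The 8 include FOSB and NR4A1, which prompted the list. The smallest fall was -0.01, at JUN Nfu_g_1_020051 (edgeR FDR 0.96). This list was put together after the values were seen. NPAS4, an activity-dependent factor specific to neurons, stood at 53.3, 63.0, 87.7 and 189 CPM at 108 dph and at 361, 377, 329 and 237 CPM at 39 dph. JUND averaged 44.1 ± 12.5 CPM at 108 dph and 107 ± 9.84 CPM at 39 dph, and FOSL2 averaged 69.7 ± 15.0 CPM at 108 dph and 168 ± 26.3 CPM at 39 dph (SD, n = 4 each). These genes fell by 1.73, 1.28 and 1.27 on the log2 scale, with edgeR FDRs of 0.0087, 0.00070 and 0.00044. Falls also passed for FOSL1, for NR4A3 and for 1 of 2 JUN loci (Nfu_g_1_020727). EGR2 and EGR3 had log2 fold changes of -2.30 and -0.83 with edgeR FDRs of 0.067 and 0.051. EGR2 passed with the 8 libraries alone. EGR3 passed with DESeq2, with all 24 libraries, with the length trend removed and without 108 dph male replicate 4. Without 39 dph male replicate 4 neither passed, with edgeR FDRs of 0.073 and 0.072. FOS, EGR1, EGR4 and both JUNB loci overlapped between the ages and did not pass (edgeR FDRs 0.18, 0.27, 0.58, 0.18 and 0.48). In females 8 of the 16 loci were called lower, beside 2174 of all 18824 genes tested there, and 7 of them were among the 8 called in males. FOSL1 was not called there (log2 fold change 0.37, edgeR FDR 0.75), and EGR3 was (edgeR FDR 0.0088).

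**Figure D5:**
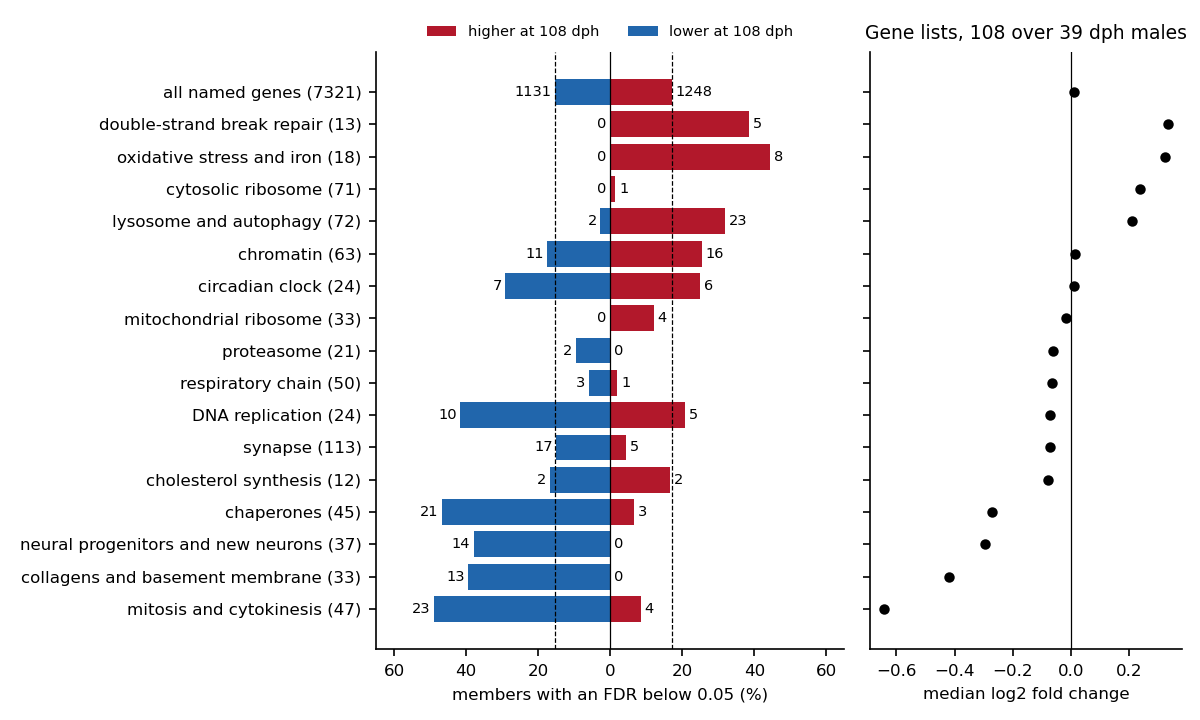
Members of 16 gene lists with an edgeR FDR below 0.05, in percent of tested members (left; red, higher at 108 dph; blue, lower), and the median log2 fold change of all tested members (right). Numbers at the bars are genes and those in brackets are members tested. Dashed lines mark the shares of all named genes, 17.0% and 15.4%. By their medians, chaperone, neurogenesis, collagen and mitosis genes lie to the left, and oxidative stress, repair, cytosolic ribosome and autophagy genes to the right.

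Genes of protein folding were mostly lower where they passed. Of 45 tested chaperone genes 21 were lower and 3 higher at 108 dph, with a median log2 fold change of -0.27. These shares were 46.7% and 6.67%, beside 15.4% and 17.0% of all named genes. Of the called genes, 18 of the 21 lower and 2 of the 3 higher are named in a table selected on age. Among folding helpers of the endoplasmic reticulum 9 of 11 were lower and 0 higher, with a median of -0.55. HSPA5 (BiP), the central chaperone of this compartment, stood at 32.2, 35.4, 41.3 and 36.2 CPM in the 108 dph males, and at 80.7, 96.9, 98.4 and 88.5 CPM in the 39 dph males. The ages were far apart, and the log2 fold change was -1.33 (SE 0.10, edgeR FDR 1.5e-05). A second locus of the same name fell as well. CRELD2, MANF, PDIA5, PDIA6, HSP90B1, DNAJC10 and HYOU1, all helpers of folding or of disulfide exchange in the endoplasmic reticulum, fell with log2 fold changes between -1.11 and -0.29.

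Among cytosolic heat shock genes 11 of 24 were lower and 2 higher at 108 dph. DNAJA4, a co-chaperone of HSP70, was at 49.6, 41.4, 36.9 and 44.1 CPM at 108 dph and at 123, 109, 125 and 156 CPM at 39 dph (log2 fold change -1.57, SE 0.12, edgeR FDR 2.4e-05). AHSA1, the activator of the HSP90 ATPase, averaged 58.1 ± 3.47 CPM at 108 dph and 89.0 ± 4.66 CPM at 39 dph (SD, n = 4 each). The exceptions were HSPB1, the small heat shock protein HSP27, and HSF1, the transcription factor that induces heat shock genes. HSPB1 stood at 79.2, 72.6, 89.2 and 37.3 CPM at 108 dph and at 33.1, 34.2, 30.9 and 23.7 CPM at 39 dph. HSF1 rose less (log2 fold change 0.34, SE 0.06, edgeR FDR 0.0034). The mitochondrial HSP70, HSPA9, was the other chaperone gene called higher. Of the 24 chaperone genes named in the table that was not selected on age, 8 were lower and 1 higher. Some of the 8 are also named in a table selected on age, so this count is not independent of that selection. In females 18 of 45 were lower and 4 higher, beside 2174 lower and 2312 higher of all 18824 genes tested there.

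Genes of lysosomes and autophagy were far more often higher than lower. Of 72 tested members 23 were higher (31.9%) and 2 lower (2.78%) at 108 dph, beside 17.0% and 15.4% of all named genes. The median log2 fold change was 0.21, and the list level of every old male was above that of every young male. SQSTM1 (p62), the receptor that carries ubiquitinated cargo to autophagosomes, stood at 112, 94.8, 94.6 and 94.5 CPM in the 108 dph males, and at 57.2, 50.3, 48.2 and 47.1 CPM in the 39 dph males. The ages did not overlap (log2 fold change 0.96, SE 0.10, edgeR FDR 8.1e-05). ATG9A, the lipid scramblase of growing autophagosomes, averaged 148 ± 9.73 CPM at 108 dph and 96.7 ± 3.89 CPM at 39 dph. ATG13, of the kinase complex that starts autophagy, averaged 85.9 ± 2.16 CPM at 108 dph and 58.5 ± 3.83 CPM at 39 dph (SD, n = 4 each). Both passed, with edgeR FDRs of 0.00015 and 0.00024.

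Within this list autophagosome genes were higher in 14 of 34 and lower in 1, and lysosomal enzymes and membrane proteins were higher in 7 of 22 and lower in 0. The called enzymes and membrane proteins were the cathepsins CTSB and CTSD, the peptidase TPP1, ARSB, prosaposin (PSAP), the cholesterol exporter NPC1 and LAMP1. The proton pump behaved differently, with 2 of 16 higher and 1 lower. ATP6V0A2 (Nfu_g_1_004380), a membrane subunit of the pump, was at 53.3, 51.1, 63.6 and 52.6 CPM at 108 dph and at 30.5, 30.2, 24.9 and 24.0 CPM at 39 dph. ATP6V1H, a subunit of its soluble part, fell slightly (log2 fold change -0.25, SE 0.08, edgeR FDR 0.047), as did GABARAPL2 (-0.27, SE 0.09, edgeR FDR 0.045), and neither passed without 39 dph male replicate 4. Among the 38 members named in the table that was not selected on age, 3 were higher and 2 lower. All 23 higher members of the list, these 3 included, are also named in a table selected on age. The count is thus not independent of that selection. The list has 45 members named in such tables, and the 23 among them stand beside a share higher of 23.9% over all genes so named. Proteasome genes stayed near the background or under it, with 2 of 21 lower and 0 higher. These were PSMD2 (log2 fold change -0.37) and PSMC1 (-0.28), both of the regulatory particle.

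Genes of cell division were mostly lower where they passed. Of 47 tested genes of mitosis and cytokinesis, 23 were lower and 4 higher at 108 dph, with a median log2 fold change of -0.64. All but 2 of the 47 are named only in tables selected on age, so the count is no independent evidence of its direction. In all, 46 of the 47 are named in such a table, and they hold all 4 higher and all 23 lower genes. The share called over all genes named in such tables was 46.1%. MKI67 (Ki-67), a marker of cycling cells, stood at 12.1, 12.2, 19.7 and 19.3 CPM in the 108 dph males, and at 33.2, 34.8, 39.5 and 28.1 CPM in the 39 dph males. The ages did not overlap, and the log2 fold change was -1.10 (SE 0.23, edgeR FDR 0.0059). CDC20, which directs the anaphase-promoting complex, averaged 4.13 ± 1.06 CPM at 108 dph and 9.43 ± 1.11 CPM at 39 dph, and SMC2, a condensin subunit, averaged 5.62 ± 1.03 CPM at 108 dph and 12.7 ± 2.59 CPM at 39 dph (SD, n = 4 each). CCNA2 (cyclin A2) fell by 0.80 on the log2 scale. The 4 higher loci were CENPO, 1 of 2 named BUB1B and a pair named NCAPH2. The level of the list differed between fish of 1 age: in 108 dph male replicates 3 and 4 the median of its members was 0.00 and -0.17 relative to the mean of all 12 males on the log2 scale, against -0.38 and -0.44 in replicates 1 and 2.

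DNA replication genes moved in both directions. Of 24 tested genes 10 were lower and 5 higher at 108 dph, and 18 of the 24 are named only in tables selected on age. In all, 20 of the 24 are named in such a table, and they hold all 5 higher and all 10 lower genes, again beside a share called of 46.1%. Subunits of the MCM helicase fell, with MCM6 at 6.91, 7.87, 9.73 and 9.80 CPM at 108 dph and 17.5, 21.4, 23.1 and 15.4 CPM at 39 dph (log2 fold change -1.17, SE 0.18, edgeR FDR 0.0013). MCM4 and 1 of 2 MCM2 loci fell by 0.96 and 1.00, and RRM1, the large subunit of ribonucleotide reductase, fell at both loci, by 1.41 and 0.46. In the opposite direction DNA2, a nuclease and helicase of lagging strand processing and of break resection, was at 19.8, 25.2, 23.9 and 25.5 CPM at 108 dph and at 11.8, 13.8, 11.1 and 12.4 CPM at 39 dph. Its log2 fold change was 0.95 (SE 0.11, edgeR FDR 0.00022). GINS1, of the replicative helicase complex, rose by 1.28 (SE 0.18, edgeR FDR 0.00056). The list level overlapped between the ages.

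Genes of double-strand break repair rose where they passed. Of 13 tested genes 5 were higher and 0 lower at 108 dph, and the median log2 fold change was 0.33. Here too most names, 10 of 13, come only from tables selected on age. In all, 11 of the 13 are named in such a table and hold all 5 called genes. The share called over all genes named in such tables was 46.1%. ATR, the kinase that senses stalled replication forks, stood at 22.7, 27.1, 22.8 and 26.9 CPM in the 108 dph males, and at 12.9, 13.4, 13.9 and 13.99 CPM in the 39 dph males. BLM, the helicase mutated in Bloom syndrome, averaged 33.7 ± 2.91 CPM at 108 dph and 19.5 ± 1.67 CPM at 39 dph (SD, n = 4 each). The log2 fold changes were 0.88 for ATR (SE 0.10, edgeR FDR 0.00021) and 0.79 for BLM (SE 0.10, edgeR FDR 0.00039). Without 39 dph male replicate 4, 3 of the 13 genes were called higher and 0 lower.

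Several genes had been picked for PCR in the study. XRCC2, a gene of homologous recombination, was at 13.6, 14.6, 10.7 and 11.8 CPM at 108 dph and at 8.05, 8.99, 9.10 and 7.05 CPM at 39 dph. It passed (log2 fold change 0.61, SE 0.15, edgeR FDR 0.016), as did DNA2. KIF11, the spindle motor Eg5, was at 6.48, 5.89, 12.1 and 10.7 CPM at 108 dph and at 14.6, 18.7, 19.5 and 15.2 CPM at 39 dph, and fell by 0.95 (SE 0.27, edgeR FDR 0.028). ANLN (anillin), a scaffold of the cleavage furrow, did not pass (log2 fold change -0.71, SE 0.27, edgeR FDR 0.085), and the ages overlapped. PRIM1, the catalytic subunit of primase, had 0.22 (SE 0.10, edgeR FDR 0.13). In its case all 4 old males, at 16.5 to 17.0 CPM, were above all 4 young males, at 13.6 to 15.2 CPM, but the difference did not pass.

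Neural progenitor genes and genes of new neurons were lower where they passed. Of 37 tested genes 14 were lower (37.8%) and 0 higher at 108 dph, beside 15.4% and 17.0% of all named genes. The median log2 fold change was -0.30, and the list level of every old male was below that of every young male. SOX4, which drives the early program of neuronal differentiation, is named for 2 loci, and both fell. Nfu_g_1_001775 stood at 11.7, 13.1, 14.8 and 15.8 CPM in the 108 dph males, and at 32.3, 35.3, 37.3 and 30.9 CPM in the 39 dph males (log2 fold change -1.29, SE 0.13, edgeR FDR 9.2e-05). Nfu_g_1_012974 fell by 0.93 (SE 0.11, edgeR FDR 0.00020).

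SOX11, a close relative of SOX4, was at 19.0, 27.6, 32.3 and 30.2 CPM at 108 dph and at 57.3, 57.4, 62.9 and 57.7 CPM at 39 dph. DCX (doublecortin), a microtubule protein of migrating new neurons, was at 54.5, 59.97, 65.5 and 77.6 CPM at 108 dph and at 111, 110, 120 and 104 CPM at 39 dph. These values were separate between the ages, with log2 fold changes of -1.11 and -0.79 and edgeR FDRs of 0.00034 and 0.00057. Progenitor genes that fell include the Notch ligand DLL1 (2 loci), 1 of 2 loci of the receptor NOTCH1 and the intermediate filament NES (nestin). Without 39 dph male replicate 4 the counts were again 14 lower and 0 higher. Of the 19 members named in the table that was not selected on age, 4 were lower and 0 higher. All 14 lower members of the list, these 4 included, are also named in a table selected on age. The list has 25 members named in such tables, and the 14 among them stand beside a share lower of 22.2% over all genes so named. In females 20 were lower and 2 higher, beside 2174 lower and 2312 higher of all 18824 genes tested there.

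Genes of the mature synapse were nearer to the background. Of 113 tested genes 17 were lower and 5 higher, which is about the share of falls among named genes and under that of rises, and the median log2 fold change was -0.07. Single receptors moved clearly. GRIK2, a kainate receptor subunit, was at 55.0, 35.0, 36.5 and 47.2 CPM at 108 dph and at 18.7, 13.5, 19.3 and 17.0 CPM at 39 dph (log2 fold change 1.34, SE 0.22, edgeR FDR 0.0015). GRID1, a delta-type glutamate receptor, rose by 0.86. LRRTM2, an adhesion protein of excitatory synapses, fell by 1.64 (SE 0.21, edgeR FDR 0.00036). SYT4, a synaptotagmin of dense-core vesicles, averaged 119 ± 6.51 CPM at 108 dph and 204 ± 33.3 CPM at 39 dph, and GABRB2, a subunit of the GABA-A receptor, averaged 108 ± 16.9 CPM at 108 dph and 159 ± 6.34 CPM at 39 dph at Nfu_g_1_004593 (SD, n = 4 each).

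Chromatin genes changed in both directions by role. Of 63 tested genes 16 were higher and 11 lower at 108 dph. These shares were 25.4% and 17.5%, beside 17.0% and 15.4% of all named genes. Of the called genes, 12 of the 16 higher and 10 of the 11 lower are named in a table selected on age. All 10 called Polycomb genes, of 16 tested, were higher, with a median of 0.35 over the 16. EZH1, a methyltransferase of Polycomb repressive complex 2, was at 109, 117, 106 and 115 CPM in the 108 dph males, and at 72.5, 76.4, 71.8 and 79.4 CPM in the 39 dph males (log2 fold change 0.57, SE 0.07, edgeR FDR 0.00031). PCGF3, of complex 1, averaged 132 ± 13.9 CPM at 108 dph and 75.8 ± 7.97 CPM at 39 dph (SD, n = 4 each). Higher as well were 1 of 2 EZH2 loci, CBX8, PCGF5 and the ubiquitin ligase RNF2 (2 loci).

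Among demethylases, deacetylases and DNA methylation genes 7 of 27 were lower and 3 higher at 108 dph, and among the other histone methyltransferases 4 of 20 were lower and 3 higher, with medians of -0.13 and -0.07. HDAC1, a class I deacetylase, was at 141, 155, 155 and 167 CPM at 108 dph and at 251, 231, 235 and 225 CPM at 39 dph, and HDAC8 (Nfu_g_1_009605), another of this class, averaged 6.96 ± 0.94 CPM at 108 dph and 17.0 ± 1.07 CPM at 39 dph (SD, n = 4 each). Their log2 fold changes were -0.61 and -1.28, with edgeR FDRs of 0.00034 and 6.0e-05. KMT2C (Nfu_g_1_007311), a methyltransferase of enhancers, fell by 0.64. KMT5A, which methylates histone H4, fell by 1.61 at Nfu_g_1_008952 and rose by 0.40 at Nfu_g_1_018406. Of the 37 chromatin genes named in the table that was not selected on age, 9 were higher and 3 lower. Some of these in each direction are also named in a table selected on age, so this count is not independent of that selection. In females 17 of 63 were higher and 17 lower, beside 2312 higher and 2174 lower of all 18824 genes tested there.

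Clock genes changed in both directions. Of 24 tested genes 6 were higher and 7 lower at 108 dph, with a median log2 fold change of 0.01. Among all named genes 17.0% were called higher and 15.4% lower. Of the 24 clock genes, 14 are named in a table selected on age. These 14 hold all 6 higher and 4 of the 7 lower genes. The share called over all genes named in such tables was 46.1%. Beside 1 of 2 ARNTL2 loci, TEF and 1 of 3 HLF loci, output factors of the clock that bind D-box elements, rose, HLF by 0.82 (SE 0.14, edgeR FDR 0.0018) and TEF by 0.86 (SE 0.16, edgeR FDR 0.0029) on the log2 scale. PER1 averaged 244 ± 29.7 CPM at 108 dph and 185 ± 7.64 CPM at 39 dph (SD, n = 4 each). NR1D2 (REV-ERB beta), a repressor of the activator genes, was lower at 3 of 5 loci, and Nfu_g_1_010960 stood at 49.6, 128, 90.5 and 103 CPM at 108 dph and at 182, 216, 237 and 263 CPM at 39 dph (log2 fold change -1.27, SE 0.22, edgeR FDR 0.0023). CIART fell by 0.60, and RORB fell by 0.70 at Nfu_g_1_001263 and rose by 0.83 at Nfu_g_1_009294. By the study's methods all wild fish were dissected early in the morning, and a shift in the phase of the clock was not measured.

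Genes of oxidative stress defence and iron handling were higher where they passed. Of 18 tested genes 8 were higher and 0 lower at 108 dph, with a median log2 fold change of 0.33. The list level was 0.44, 0.03, 0.14 and 0.03 in the 108 dph males relative to the mean of all males on the log2 scale. In the 39 dph males it was -0.07, -0.10, -0.18 and -0.17. The ages did not overlap, but 108 dph male replicate 1 stood well above the other old males. The share higher was 44.4%, beside 17.0% of all named genes. All 8 are among the 12 members named in a table selected on age, beside a share higher of 23.9% over all genes so named. FTL, a ferritin chain that stores iron, was at 757, 449.2, 453 and 476 CPM in the 108 dph males, and at 336, 299, 302 and 339 CPM in the 39 dph males. SLC40A1 (ferroportin), which exports iron from cells, was at 45.6, 63.6, 56.8 and 48.0 CPM at 108 dph and at 32.1, 31.1, 34.8 and 37.3 CPM at 39 dph. The log2 fold changes were 0.74 (SE 0.14, edgeR FDR 0.0045) and 0.66 (SE 0.11, edgeR FDR 0.0015). GCLM, of glutathione synthesis, rose by 0.59, 1 of 2 loci of the superoxide dismutase SOD1 rose by 0.51, and GPX4, TXN, PRDX4 and PRDX6 were called higher as well. Without 39 dph male replicate 4 the list had 5 called genes. In females 9 of 18 were higher and 0 lower, beside 2312 higher and 2174 lower of all 18824 genes tested there.

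Of 7 symbols listed as red blood cell markers only 2 were named, SLC4A1 and ALAS2, and of their 3 loci 1 was called higher. The summed level of the 3 loci, most of it from SLC4A1, was 183 to 207 RPM in the old and 101 to 127 RPM in the young males. SLC4A1, the anion exchanger of the red cell membrane, was at 144, 165, 153 and 179 CPM at 108 dph and at 82.5, 77.0, 83.4 and 90.7 CPM at 39 dph (log2 fold change 0.94, SE 0.08, edgeR FDR 4.3e-05). Neither locus of ALAS2, the enzyme of haem synthesis in these cells, passed the test. The part of blood in the changes of iron genes was not tested.

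Genes of translation and respiration showed few calls. Of 71 tested genes of the cytosolic ribosome 1 was higher (1.41%) and 0 lower, under the 17.0% and 15.4% of all named genes. Yet 69 of the 71 had a positive log2 fold change, with a median of 0.24. An RPL5 locus was the called gene (log2 fold change 0.40, SE 0.09, edgeR FDR 0.011). The list level was 0.53, 0.00, 0.09 and -0.16 in the 108 dph males relative to the mean of all males on the log2 scale, and -0.00, -0.19, -0.13 and -0.06 in the 39 dph males. The ages overlapped, and 108 dph male replicate 1 alone stood high. When the trend over gene length was removed from each library, 11 ribosomal genes were called higher.

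Of 50 respiratory chain genes 1 was higher and 3 were lower at 108 dph. COX6B1 (Nfu_g_1_018035), a subunit of cytochrome c oxidase, averaged 99.2 ± 11.8 CPM at 108 dph and 61.9 ± 7.78 CPM at 39 dph, and ATP5A1, of ATP synthase, averaged 276 ± 41.8 CPM at 108 dph and 369 ± 33.0 CPM at 39 dph at Nfu_g_1_006324 (SD, n = 4 each). A second ATP5A1 locus and 1 of 2 loci of UQCRC2, of complex III, fell as well. Mitochondrial ribosome genes were higher in 4 of 33 (12.1%) and lower in 0, also under the shares of all named genes. MRPS11 came first (log2 fold change 0.41, SE 0.09, edgeR FDR 0.0070), and without 39 dph male replicate 4 the count was 1.

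Cholesterol genes gave 2 of 12 higher and 2 lower, 16.7% each way, which is near the 17.0% and 15.4% of all named genes. SQLE, an enzyme of cholesterol synthesis, averaged 3.23 ± 1.94 CPM at 108 dph and 7.59 ± 0.69 CPM at 39 dph (SD, n = 4 each). Its log2 fold change was -1.22 (SE 0.36, edgeR FDR 0.033), and it did not pass without 39 dph male replicate 4.

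Genes without a name held changes as large. Nfu_g_1_003589 was at 86.9, 54.7, 48.5 and 29.5 CPM in the 108 dph males and at 7.95, 5.40, 15.6 and 6.54 CPM in the 39 dph males. Nfu_g_1_010632 was at 189, 127, 105 and 55.8 CPM at 108 dph and at 16.5, 14.02, 34.0 and 15.7 CPM at 39 dph. The order of the 8 fish was the same in these loci, and the log2 fold changes were 2.62 (SE 0.38, edgeR FDR 0.00074) and 2.56 (SE 0.38, edgeR FDR 0.00090). Nfu_g_1_002182 fell by 2.90 (SE 0.63, edgeR FDR 0.0080). Nfu_g_1_018978 had a fitted log2 fold change of -6.13, which rested on 253 CPM in 39 dph male replicate 4: the other young males had 2.00, 2.30 and 3.75 CPM and the old males 0.94, 0.66, 1.13 and 0.91 CPM, and without that library it gave -1.54 with an edgeR FDR of 0.023.

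The males of 73 dph lay between the other ages for most called genes. Their mean was between the means of 39 and 108 dph in 3220 of the 3593 genes (89.6%), against 50.5% of all tested genes. Called genes were chosen for means of 39 and 108 dph that lie far apart, which by itself leaves more room for a mean between them. How much of the 89.6% follows from that choice was not tested. The median share of the log2 change that was present by 73 dph was 0.60 in the called genes. These fish shared the estimate of spread in the test but not the contrast.

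To ask whether males differ from females in this comparison, the female brains were tested alone and the difference between the sexes was tested directly. In females 4486 of 18824 genes passed (23.8%), 2312 higher and 2174 lower at 108 dph. Without 39 dph female replicate 4, a library of 4595506 reads, 3931 passed. Of the 3593 genes called in males 3585 were tested in females, 3485 had the same direction there and 2336 were called in it. The direct test of the log2 fold change in males minus that in females called 0 of 19358 genes with edgeR, with 1093 genes (5.65%) at an unadjusted p below 0.05 and a lowest FDR of 0.77. DESeq2 called 1 gene. Lists nevertheless differed in count: cytosolic ribosome genes had a positive log2 fold change in 69 of 71 in males and in 51 of 71 in females, with medians of 0.24 and 0.04, and respiratory chain genes were lower in 3 of 50 in males and in 17 of 50 in females. The difference between the sexes was not tested for these lists.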

How the data were processed

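RNA of 24 whole brains was sequenced as single-end reads from a stranded mRNA kit. Per the labels and methods, the authors used bcl2fastq 1.8.4, TopHat2 2.1.0 and featureCounts 1.5.0 with the annotation of the species' genome browser, and they deposited whole-number counts of sense-strand reads with 1 place in the genome. The authors also deposited RPKM values, which served here only to obtain gene lengths.

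The counts of 12 males were filtered (filterByExpr, minimum count 10), scaled by TMM and tested with the quasi-likelihood test of edgeR 4.0.16 (R 4.3.3) at an FDR of 0.05 after Benjamini and Hochberg, as 108 minus 39 dph. CPM refers to the scaled library, the prior count was 2, and SE is the log2 fold change divided by the root of F. Replicates are separate fish numbered in accession order. Counting error is small beside the spread between fish except for genes of a few CPM. Females were tested alike, and the sex difference as an interaction over 24 libraries. The steps were tested on simulated data.

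Named genes were the 10 largest rises and the 10 largest falls that had an orthologue name, a mean log2 CPM of at least 1, no overlap between ages and a call without 39 dph male replicate 4. To these came up to 4 members of each list and direction by lowest FDR, genes picked for PCR, and the 2 largest rises and falls without a name. The text also names further called list members, and genes picked after their values were seen (keratins, AGR2, immediate early genes). Members and lists were chosen with earlier results of these data known. The comparison was repeated with DESeq2 1.42.0, other size factors, filters, libraries and thresholds, without the length trend, without each fish, and with names from 1 table only. Leaving out 39 dph male replicates 1 and 4 was chosen after seeing the data. A few genes that the rule selects are not reported here.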

Additional observations from a re-analysis of the deposited data

Results flagged for a closer look

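In 29 of 332 groups of 4 fish, 1 fish stood apart from the other 3 by Dixon's criterion, and chance alone gives about 1 in 20, or 16.6 groups. The fish concerned was 108 dph male replicate 1 in 8 groups and 39 dph male replicate 4 in 6. No cause was tested.

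In 108 dph male replicate 1 the high values were ARNTL2 with 90.6 CPM (nearest other fish 62.3), SQSTM1 with 111.6 CPM (94.8), MRPS11 with 61.5 CPM (50.01), FTL with 757 CPM (476), CBX8 with 57.3 CPM (38.5), PRDX4 with 155.5 CPM (112) and AGR2 with 0.86 CPM (0.17). Its RORB at Nfu_g_1_001263 was low, at 15.6 CPM (23.1). For ARNTL2, SQSTM1, FTL, CBX8 and PRDX4, the other old males were still above all young males.

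Replicate 2 of 108 dph was low in PDIA6 with 24.3 CPM (49.3) and in STMN2 at Nfu_g_1_014491 with 431.5 CPM (518). Replicate 3 of this age was high in SQLE with 6.13 CPM (2.51), in ATP5A1 at Nfu_g_1_009250 with 678 CPM (617) and in CRELD2 with 10.04 CPM (7.78). Replicate 4 was high in FOSB with 17.7 CPM (8.24) and in FOSL2 with 92.1 CPM (63.9), and low in LAMP1 with 149 CPM (175).

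Among 39 dph males, replicate 4 had the fewest reads, 10019750 (next 17631841). It was high in JARID2 with 250.7 CPM (171), in HLF with 65.3 CPM (43.4), in the unnamed Nfu_g_1_018978 with 253 CPM (3.75) and in the level of the chromatin list with 0.092 on the log2 scale (-0.016), and low in CRELD2 with 15.7 CPM (18.3). Replicate 1 was high in PRSS48 with 17.8 CPM (11.1) and in KRT32 at Nfu_g_1_006862 with 206 CPM (30.5). Replicate 2 was high in PCGF3 with 87.6 CPM (72.97). Replicate 3 was high in RRM1 at Nfu_g_1_005253 with 16.95 CPM (13.2), in SOX11 with 62.9 CPM (57.7), in Nfu_g_1_010632 with 34 CPM (16.5) and in Nfu_g_1_002182 with 24 CPM (6.64).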

How the results depend on the processing

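Of 143 called genes named in the text, 86 passed under every alternative, 110 without each single fish of either age, 128 when 39 dph male replicate 4 was left out, and 89 when 39 dph male replicates 1 and 4 were. DESeq2 called 142 and gave no adjusted p for 1. No sign changed except in 2 KRT32 loci without 39 dph male replicates 1 and 4 (0.090 at Nfu_g_1_006862 and 0.20 at Nfu_g_1_017018). The count of genes was 1493 in that fit and 1489 at an FDR of 0.01. It ran between 2478 and 3708 when single fish were left out, and between 3232 and 4411 in females. The sex difference gave 1 gene with DESeq2 and 0 to 1 with single fish left out.

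Without 39 dph male replicates 1 and 4 the called members were 8 for DNA replication, 14 for mitosis, 2 for break repair, 11 for the synapse, 12 for lysosome and autophagy, 15 for chaperones, 1 for the proteasome, 0 for the cytosolic ribosome, 2 for the respiratory chain, 1 for the mitochondrial ribosome, 13 for chromatin, 7 for the clock, 1 for cholesterol, 3 for collagens and 4 for oxidative stress. This fit has fewer fish. Without 39 dph male replicate 4 break repair had 3 (median 0.46), the mitochondrial ribosome 1 and oxidative stress 5. With the length trend removed the cytosolic ribosome had 11.

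With names from the table of wild against captive fish only, fewer members could be tested, and some of these are also named in tables selected on age. The called members and medians were 1 and 0.22 for DNA replication, 0 and 0.21 for mitosis, 1 and 0.12 for break repair, 4 and -0.18 for neurogenesis, 5 and 0.066 for lysosome and autophagy, 9 and -0.21 for chaperones, and 1 and 0.29 for cholesterol. The called members were 9 for the synapse, 1 for the proteasome, 2 for the respiratory chain, 2 for the mitochondrial ribosome, 12 for chromatin, 7 for the clock, 3 for collagens and 4 for oxidative stress. No paired analysis was possible because fish of different ages were different wild animals and replicate numbers only follow accession order.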
